A study of Mus musculus with 5 samples.

Results

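Fibroblast growth factor (FGF) signalling in the alveolar niche was followed through 9 genes in 5 single-cell libraries of adult mouse lung. The genes were the receptors *Fgfr2* and *Fgfr1*, the ligands *Fgf7*, *Fgf10* and *Fgf1*, and 4 genes induced by the pathway, *Etv5*, *Spry2*, *Spry4* and *Dusp6*. They were chosen by symbol, and all 9 were found among the 31053 genes listed. Of 29500 cells that passed the quality filter, 1916 were gated as alveolar type 2 (AT2) cells, the surfactant-secreting cells of the alveolus, 21327 as endothelial cells and 1547 as mesenchymal cells. A gated AT2 cell held at least 5% of its unique molecular identifiers (UMIs, which count captured RNA molecules rather than PCR copies) as *Sftpc* and at least 1 *Epcam* UMI. Endothelial cells held at least 2 UMIs of *Cdh5* and *Pecam1* together, and mesenchymal cells at least 2 of *Col1a2*. Cells with a UMI of another compartment's gate genes were left out, except that *Sftpc* was allowed in endothelial and mesenchymal cells, and none of the 9 genes was used to choose the cells.

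Each library pooled the lungs of one condition. Day 7 lungs came from Itgb1 fl/fl mice given LPS, Itgb1 iKO mice given LPS and Itgb1 iKO mice given PBS, and day 21 lungs from Itgb1 fl/fl and Itgb1 iKO mice given LPS. LPS is a bacterial product that injures the alveolus and was given once into the trachea. In Itgb1 iKO mice a doxycycline-inducible Cre under the SP-C promoter deletes the floxed *Itgb1* gene, which encodes the β1 integrin subunit, in AT2 cells. Both alleles of *Itgb1* were therefore floxed in every mouse, and the controls were littermates without the rtTA and Cre transgenes. Doxycycline was given to both genotypes and was stopped before injury. Viable cells without CD45 or Ter119 were sorted, so that immune and red blood cells were removed, and EPCAM-positive cells were added to the day 21 pools. PBS-treated Itgb1 fl/fl lungs were not analysed here.

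FGF7 and FGF10 are secreted by lung mesenchyme and bind the IIIb splice form of FGFR2, which is made by epithelial cells and is required for lung branching and for the upkeep of AT2 cells. FGF1 can bind every FGF receptor. Receptor activity runs through the RAS, MEK and ERK cascade, which induces the transcription factor *Etv5* and the feedback inhibitors *Spry2*, *Spry4* and *Dusp6*. Sprouty proteins act upstream of ERK and DUSP6 is an ERK phosphatase. Other receptors, such as those for VEGF in endothelium, use the same cascade and induce the same feedback genes. Counts per gene do not separate the IIIb and IIIc forms of *Fgfr2*.

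The starts of a ligand gene, *Fgf7*, and of a pair of feedback genes, *Dusp6* and *Spry2*, are shown. *Fgf7* and *Dusp6* each passed a test between conditions described below. *Spry2* differed between gates, and between conditions it passed only under another hashtag rule. ETS factors such as ETV5 bind sites built on the letters GGAA. Capitals mark GGAA and its reverse complement TTCC. Each window is the 250 bases before the RefSeq start (GRCm38.p6), written 5′ to 3′ on the strand of the gene. The window of *Dusp6* lies at chr10:99262981-99263230 on the + strand, just before the gene at chromosome 10 positions 99263231 to 99267489. That of *Spry2* lies at chr14:105896820-105897069 on the - strand, and that of *Fgf7* at chr2:126034408-126034657 on the + strand.
Dusp6: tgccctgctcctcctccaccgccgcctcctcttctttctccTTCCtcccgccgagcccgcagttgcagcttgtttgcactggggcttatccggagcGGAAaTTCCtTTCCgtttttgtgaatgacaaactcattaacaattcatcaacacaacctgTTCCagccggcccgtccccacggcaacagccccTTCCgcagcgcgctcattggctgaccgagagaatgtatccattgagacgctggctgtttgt
Spry2: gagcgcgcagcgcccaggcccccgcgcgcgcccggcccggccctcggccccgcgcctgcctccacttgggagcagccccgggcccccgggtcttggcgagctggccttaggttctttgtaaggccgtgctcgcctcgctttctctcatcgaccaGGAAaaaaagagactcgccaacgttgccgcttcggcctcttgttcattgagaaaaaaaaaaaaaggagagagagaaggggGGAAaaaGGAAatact
Fgf7: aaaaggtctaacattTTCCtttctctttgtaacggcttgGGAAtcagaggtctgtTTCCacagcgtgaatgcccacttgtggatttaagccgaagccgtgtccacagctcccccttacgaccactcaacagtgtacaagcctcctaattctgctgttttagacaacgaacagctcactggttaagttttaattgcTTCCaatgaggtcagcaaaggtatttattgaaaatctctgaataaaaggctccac
The core occurred 6 times before *Dusp6*, 3 times before *Spry2* and 4 times before *Fgf7*, counting both strands. It is short and common: 93.4% of 32851 RefSeq promoter windows of this length held it, with a median of 3 occurrences. The longer ETS motif CCGGAAGT was found in 2.88% of all windows, the AP-1 motif TGANTCA in 6.75% and the CRE motif TGACGTCA in 1.55%, and none of these 3 was found on either strand of the 3 windows shown.

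The libraries held 2224 to 8671 passing cells, with 8360954 to 29128331 UMIs and a median of 2219 to 5330 UMIs per cell. Hashtag antibodies separated 3 mice in each library. A single hashtag was found in 50.3 to 78.7% of cells, and mice were compared only on these. Levels are given per 1000000 UMIs of the gated cells (CPM), and intervals for pooled counts are exact 95% Poisson intervals, which cover counting error only. With 1 library per condition, library and condition cannot be told apart. All 3 day 7 LPS Itgb1 fl/fl mice were *Xist*-positive and all 3 day 7 LPS Itgb1 iKO mice carried Y-linked transcripts, so that sex and genotype cannot be told apart at day 7 either. Mouse 1 of the day 21 Itgb1 fl/fl library held 49 cells with *Xist* alone and 82 with Y-linked transcripts alone, and its hashtag therefore mixed cells of both sexes. Mice 2 and 3 of that library held 154 and 239 cells with *Xist* alone, and 2 and 2 with Y-linked transcripts alone. Mouse 1 of the day 21 Itgb1 iKO library held 250 and 19 such cells, mouse 2 held 43 and 222, and mouse 3 held 15 and 295. Sex was therefore not balanced between genotypes at day 21. Between 24 and 164 barcodes were shared by pairs of libraries (0.692 to 1.69% of the smaller one). The 10 AT2 marker genes summed to 257994 to 299734 CPM in AT2 cells, 1074 to 18578 CPM in endothelial cells and 275 to 10008 CPM in mesenchymal cells. The highest of these values outside AT2 cells were both in the day 21 Itgb1 iKO library, where the AT2 marker sum in endothelial cells exceeded that of the endothelial markers (18348 CPM). The 9 endothelial markers summed to 14487 to 18742 CPM in endothelial cells and 152 to 246 CPM in AT2 cells, and the 9 mesenchymal markers to 28694 to 49608 CPM in mesenchymal cells. These lists include the gate genes *Sftpc*, *Cdh5*, *Pecam1* and *Col1a2*, so that the sums partly follow from the gating. *Sftpc* alone was 205183 to 244827 CPM in AT2 cells, where *Cdh5* and *Pecam1* were absent by rule. The 10 immune markers summed to 25703 to 33217 CPM in AT2 cells with 2 to 5 detected, nearly all of it *Lyz2* and *Cd74*, which AT2 cells also make. *Ptprc*, which encodes CD45, was at 0.137 to 1.55 CPM over all passing cells. In AT2 cells, *Itgb1* was 266 ± 35.7 CPM in Itgb1 fl/fl and 186 ± 32.5 CPM in Itgb1 iKO mice at day 7 (mean ± SD, n = 3 each; log2 difference −0.63, SE 0.16, edgeR adjusted p = 0.0164), and 349 ± 27.3 against 155 ± 19.7 CPM at day 21 (−1.27, SE 0.13, edgeR adjusted p = 2.29e-10). In endothelial cells the log2 differences in *Itgb1* were 0.01 and 0.09 and did not pass the test.

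To determine where ligands, receptors and induced genes were made, the 3 gates were compared within the 12 LPS-treated mice, with the mouse as a block and edgeR adjusted p-values over all genes. Ligand transcripts for the epithelial receptor form were found in mesenchyme. *Fgf7* reached 95.9 CPM (interval 89.1 to 103) over all mesenchymal cells, against 0.814 CPM in endothelial cells and 3 UMIs in 16912549 in AT2 cells, or 0.177 CPM. Over the mice, mesenchymal *Fgf7* ran from 33.6 CPM through a median of 81.9 to 194 CPM, and endothelial *Fgf7* from 0 to 3.98 CPM. The mesenchymal value was the higher in 12 of 12 mice (log2 difference 6.22, SE 0.31, adjusted p = 7.35e-26). *Fgf10*, the ligand required for lung bud outgrowth, was 38.4 CPM (34.1 to 43.0) in mesenchyme, 0.916 CPM in endothelium and 2 UMIs in AT2 cells. It was higher in mesenchyme than in endothelium in 11 of 12 mice (log2 difference 5.15, SE 0.47, adjusted p = 3.22e-14). The exception was a day 21 Itgb1 iKO mouse with 8 mesenchymal cells and no *Fgf10* UMI.

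*Fgf1* was distributed differently. It was 68.8 CPM (66.7 to 71.0) in endothelial cells, 56.3 CPM (52.8 to 60.0) in AT2 cells and 14.3 CPM (11.8 to 17.3) in mesenchyme. AT2 cells ran from 28.6 through a median of 53.0 to 73.9 CPM over the mice and endothelial cells from 52.8 through 64.4 to 131 CPM, and these ranges overlapped. The difference between AT2 and endothelial cells did not pass the test (log2 0.08, SE 0.18, adjusted p = 0.709), and AT2 cells were the higher in CPM in 2 of 12 mice, so that the sign of the fitted difference is not that of the CPM. CPM divides by all UMIs of the gated cells, and *Sftpc* alone was 205183 to 244827 CPM in AT2 cells. The fit rescales the libraries and CPM does not. The part of this in the CPM orders between gates was not tested. Mesenchyme was below endothelium by a log2 difference of −2.59 (SE 0.39, adjusted p = 4.95e-06) and was the higher in 1 of 12 mice.

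The receptors divided between epithelium and mesenchyme. *Fgfr2* was 239 CPM (232 to 247) in AT2 cells, 21.8 CPM (18.6 to 25.4) in mesenchyme and 14.9 CPM (13.9 to 15.9) in endothelium. AT2 cells ran from 148 through a median of 248 to 335 CPM and endothelial cells from 9.14 through 17.6 to 26.9 CPM, with no overlap (log2 difference 4.34, SE 0.10, adjusted p = 2.22e-44). Mesenchyme fell below endothelium in the fit over mice (log2 −0.93, SE 0.38, adjusted p = 0.0327) although the pooled level was the higher, and this call was lost with DESeq2 (adjusted p = 0.0911), with stricter gates (0.0523) and when hashtags were assigned by the leading tag's share of a cell's tag counts (log2 −0.22), called the tag-share rule here. It was also lost without mouse 3 of the day 21 Itgb1 fl/fl library (−0.77, adjusted p = 0.105) or mouse 2 of the day 21 Itgb1 iKO library (−0.63, adjusted p = 0.209), and was −2.14 (adjusted p = 0.0162) without the mixed mouse. The fit uses LPS-treated mice and cells with a single hashtag. On these cells mesenchymal *Fgfr2* was 2.74 CPM in the day 21 Itgb1 fl/fl library and 8.79 CPM in the day 7 one, against 25.02 and 13.6 CPM over all their mesenchymal cells, and the pooled value also includes the PBS library at 57.8 CPM. *Fgfr1* was 153 CPM (145 to 162) in mesenchyme, 14.9 CPM (13.96 to 15.9) in endothelium and 3.13 CPM (2.35 to 4.10) in AT2 cells. Mesenchymal values ran from 56.5 through 151 to 239 CPM over the mice and endothelial values from 5.79 through 11.4 to 23.9 CPM. They did not overlap (log2 difference 3.80, SE 0.19, adjusted p = 1.26e-26), and AT2 cells were below endothelium in 12 of 12 mice (log2 −1.29, SE 0.32, adjusted p = 3.17e-04).

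**Figure D1:**
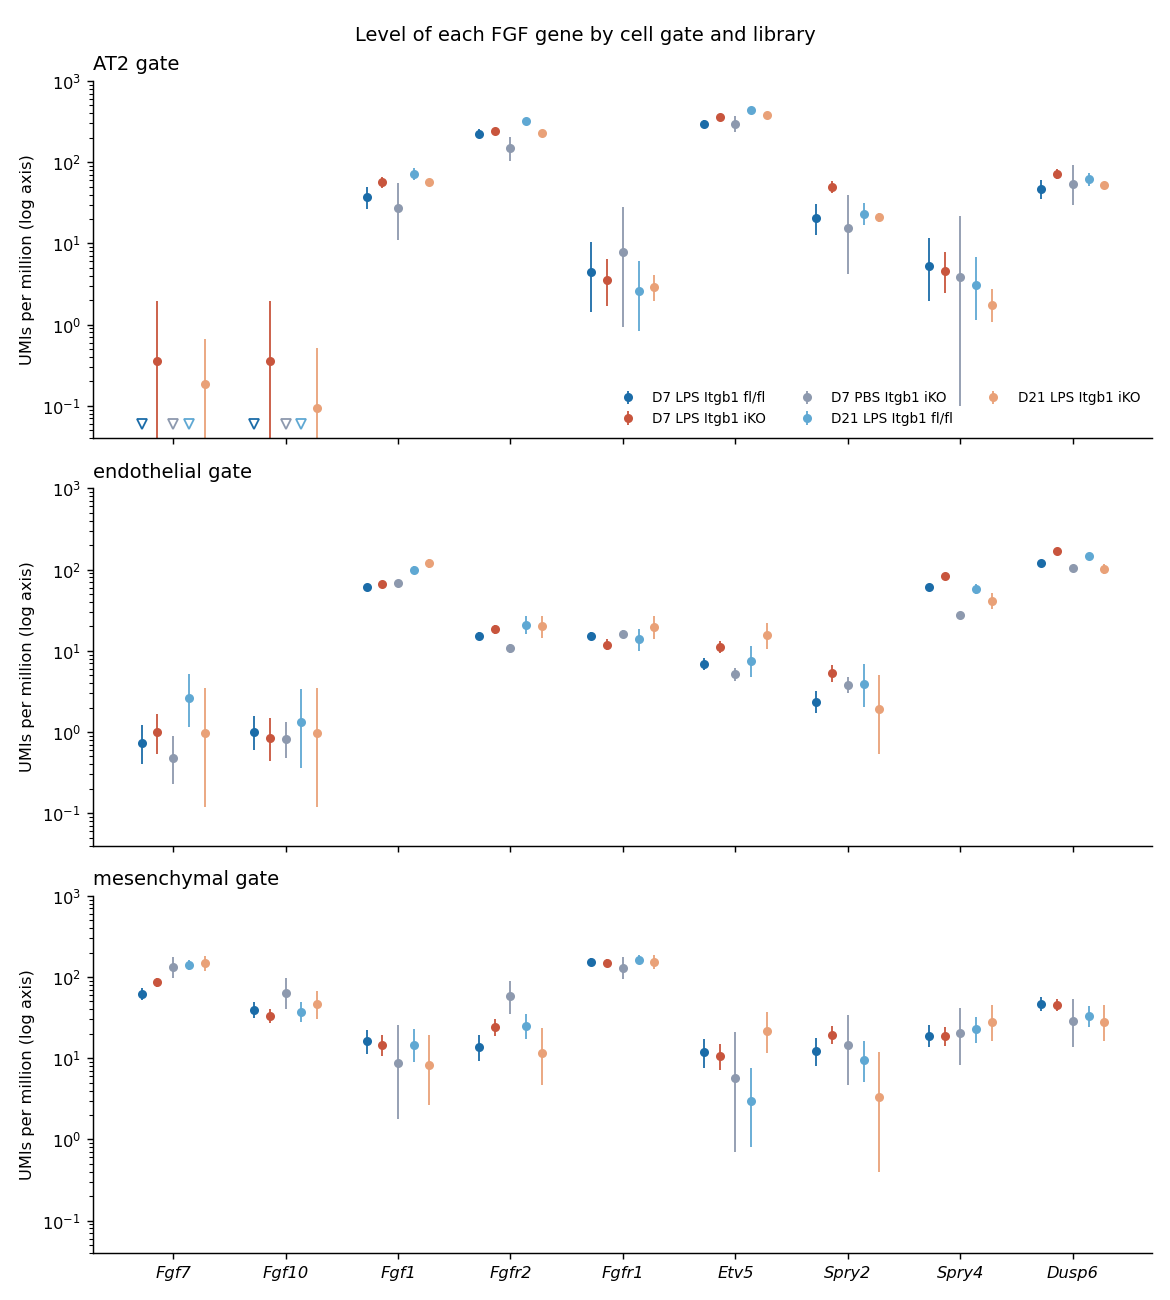
Levels of the 9 FGF genes (CPM, log axis) in AT2, endothelial and mesenchymal gated cells of each library, with exact 95% Poisson intervals and open triangles at the lower edge for libraries with 0 UMIs. *Fgf7* and *Fgf10* were highest in mesenchyme, *Fgfr2* and *Etv5* in AT2 cells, and *Spry4* and *Dusp6* in endothelium.

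The induced genes did not share a compartment. *Etv5* was 379 CPM (370 to 388) in AT2 cells, 10.2 CPM (8.06 to 12.8) in mesenchyme and 7.65 CPM (6.96 to 8.39) in endothelium. AT2 cells ran from 243 to 491 CPM over the mice and endothelial cells from 3.31 to 23.9 CPM (log2 difference 5.89, SE 0.13, adjusted p = 2.42e-36). *Spry2* was 25.9 CPM (23.5 to 28.4) in AT2 cells, 14.1 CPM (11.5 to 17.0) in mesenchyme and 3.65 CPM (3.18 to 4.17) in endothelium. It was higher in AT2 than in endothelial cells in 12 of 12 mice (log2 3.43, SE 0.28, adjusted p = 3.80e-17). *Spry4* showed the opposite order. It was 54.0 CPM (52.1 to 55.9) in endothelium, 20.3 CPM (17.2 to 23.8) in mesenchyme and 2.66 CPM (1.94 to 3.56) in AT2 cells, and was lower in AT2 than in endothelial cells in all 12 mice (log2 −3.69, SE 0.23, adjusted p = 2.99e-22). *Dusp6* was 127 CPM (124 to 130) in endothelium, 55.9 CPM (52.4 to 59.6) in AT2 cells and 41.3 CPM (36.8 to 46.1) in mesenchyme. Its endothelial value was the highest of the 3 in each of the 12 mice, with a log2 difference of −0.58 (SE 0.12, adjusted p = 4.27e-05) for AT2 cells and −1.59 (SE 0.18, adjusted p = 5.75e-10) for mesenchyme. In all, 6 of 9 genes differed between AT2 and endothelial cells, where 69.4% of all tested genes did, 8 of 9 between mesenchyme and endothelium (53.1% of all genes) and 9 of 9 between AT2 cells and mesenchyme (55.8%). The median log2 difference of all genes was −0.13 for AT2 cells and −0.11 for mesenchyme against endothelium, and 0.01 for AT2 cells against mesenchyme.

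The low endothelial levels of *Etv5* and *Fgfr2* were set beside the AT2 transcripts found in the same gate. *Sftpc* in endothelial cells was 0.298% of its AT2 level in the PBS library, 1.42% and 1.98% in the day 7 LPS libraries (Itgb1 fl/fl and Itgb1 iKO), and 1.29% and 7.46% in the day 21 libraries. The same shares of the AT2 level of *Etv5* come to 0.882, 4.17, 7.17, 5.65 and 28.6 CPM, against observed endothelial levels of 5.12, 6.94, 11.2, 7.58 and 15.6 CPM. For *Fgfr2* they come to 0.441, 3.18, 4.76, 4.12 and 17.1 CPM, against 10.8, 15.2, 18.4, 20.8 and 19.9 CPM. In the day 21 Itgb1 iKO library the *Etv5* share thus exceeded the whole observed level. The highest *Fgfr2* level was in the day 21 Itgb1 fl/fl library, and the highest *Fgfr2* share in the day 21 Itgb1 iKO library. The part of free AT2 RNA in these endothelial levels was not tested. For *Spry4* the corresponding shares were at most 0.132 CPM.

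Within endothelium, marker genes separated 4741 cells resembling aerocytes, the thin gas-exchange capillary cells, from 15265 resembling general capillary cells. *Fgf1* was 163 CPM (156 to 169) in aerocyte-like cells and 36.4 CPM (34.6 to 38.3) in general capillary-like cells. *Fgfr1* followed the same order, at 40.7 CPM (37.5 to 44.1) against 5.66 CPM (4.95 to 6.44). *Spry4* and *Dusp6* ran the other way. *Spry4* was 32.6 CPM (29.8 to 35.7) in aerocyte-like and 62.2 CPM (59.8 to 64.7) in general capillary-like cells, and *Dusp6* was 63.1 CPM (59.2 to 67.3) and 151 CPM (148 to 155). Each of these 4 orders held in all 5 libraries. These are pooled counts, given as a description without a test over mice.

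Within mesenchyme, 408 alveolar fibroblast-like, 467 adventitial fibroblast-like, 325 smooth muscle or myofibroblast-like and 144 pericyte-like cells were separated. *Fgf7* was 174 CPM (153 to 198) in alveolar fibroblast-like cells, 92.5 CPM (79.0 to 108) in smooth muscle or myofibroblast-like cells and 85.5 CPM (75.4 to 96.7) in adventitial fibroblast-like cells. This pooled order held in no day 21 library, where smooth muscle or myofibroblast-like cells were at 219 and 298 CPM and alveolar fibroblast-like cells at 203 and 231 CPM (Itgb1 fl/fl and Itgb1 iKO), with overlapping intervals. In pericyte-like cells it had 0 UMIs, which allows up to 8.99 CPM. *Fgf10* was highest in alveolar fibroblast-like cells in each of the 5 libraries and, pooled, was 73.3 CPM (59.5 to 89.3) there and 29.1 CPM (23.3 to 35.8) in adventitial fibroblast-like cells. *Fgfr1* was 188 CPM in adventitial and 177 CPM in alveolar fibroblast-like cells, with overlapping intervals, 118 CPM (103 to 135) in smooth muscle or myofibroblast-like cells, and 3 UMIs in pericyte-like cells. *Fgfr2* was highest in smooth muscle or myofibroblast-like cells at 46.5 CPM (37.1 to 57.6). Pericyte-like cells, low in both receptors, *Fgf7* and *Fgf10*, held *Spry4* at 102 CPM (73.8 to 138) and *Dusp6* at 80.5 CPM (55.4 to 113). Their *Fgf1* was 12.2 CPM (3.96 to 28.4) on 5 UMIs, an interval that overlapped those of the other mesenchymal groups. Among other epithelial cells, 85 club-like cells held *Fgfr2* at 51.9 CPM (36.6 to 71.6) and *Etv5* at 46.3 CPM (31.9 to 65.0), both below the AT2 intervals.

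**Figure D2:**
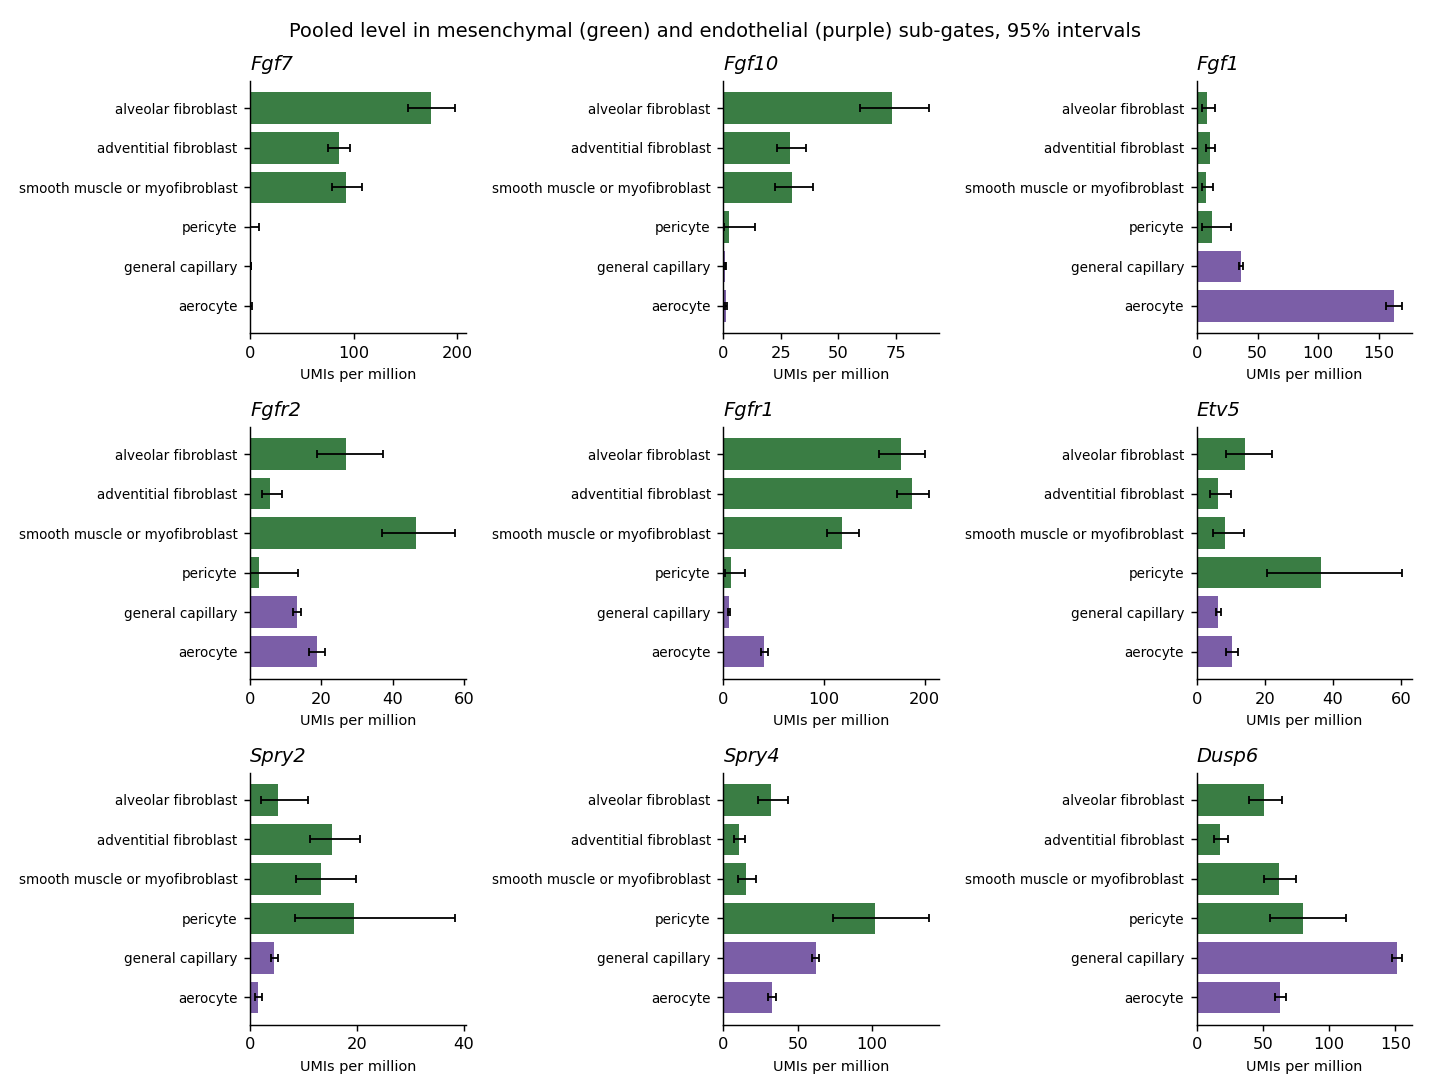
Pooled levels of the 9 genes (CPM, with exact 95% Poisson intervals) in marker-defined groups of mesenchymal and endothelial cells over all 5 libraries. In these pooled counts *Fgf7* and *Fgf10* are highest in alveolar fibroblast-like cells (for *Fgf7* not so in the day 21 libraries taken alone), *Fgf1* in aerocyte-like cells, and *Dusp6* in general capillary-like cells.

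Next, the receptor and induced genes were compared between genotypes in AT2 cells, the cells to which Cre is directed. *Itgb1* UMIs were still found in 224 of 355 gated Itgb1 iKO AT2 cells at day 7 and in 839 of 1240 at day 21. In Itgb1 fl/fl they were found in 105 of 119 and 167 of 176 cells. The gate was thus not limited to cells without *Itgb1* transcript, and the part of this in the comparisons was not tested. At day 7 after LPS, *Fgfr2* was 244, 259 and 148 CPM in the 3 Itgb1 fl/fl mice and 196, 257 and 232 CPM in the 3 Itgb1 iKO mice. The groups overlapped (log2 difference 0.00, SE 0.17, edgeR adjusted p = 0.998). *Etv5* was 311, 352 and 243 CPM against 347, 357 and 296 CPM, again overlapping (log2 0.07, SE 0.15, adjusted p = 0.922). *Spry2* was 23.6, 6.18 and 14.3 CPM in Itgb1 fl/fl and 23.7, 52.4 and 34.8 CPM in Itgb1 iKO mice. Every Itgb1 iKO value was above every Itgb1 fl/fl value, narrowly for the nearest pair, and the log2 difference of 1.09 (SE 0.40) did not pass the test (adjusted p = 0.175). Under the tag-share rule it was 1.48 and passed (adjusted p = 0.0400). *Dusp6* was 41.3, 43.2 and 95.2 CPM against 50.4, 77.4 and 61.9 CPM, and *Fgf1* 34.9 ± 9.05 against 55.9 ± 9.42 CPM (n = 3 each), neither of which passed. Of the 5 members tested in AT2 cells, 0 passed at day 7, where 1.8% of 7846 genes did. One member had an unadjusted p under 0.05, and DESeq2 called 0. The other 4 members were too low to be tested there.

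At day 21, *Fgfr2* was lower in Itgb1 iKO AT2 cells. It was 314, 281 and 335 CPM in Itgb1 fl/fl mice and 253, 196 and 234 CPM in Itgb1 iKO mice, and the groups did not overlap (log2 difference −0.55, SE 0.14, edgeR adjusted p = 0.0160). Without the mixed mouse 1 of the Itgb1 fl/fl library the difference was −0.57 (adjusted p = 0.0468). It did not pass without Itgb1 fl/fl mouse 3 (−0.53, adjusted p = 0.0999) or without Itgb1 iKO mouse 2 (−0.48, adjusted p = 0.0920). Sex was not balanced between these groups, as stated above, and the part of sex was not tested. *Etv5* was 491, 400 and 416 CPM in Itgb1 fl/fl mice and 377, 365 and 377 CPM in Itgb1 iKO mice. These groups did not overlap either, but the log2 difference of −0.31 (SE 0.13) did not pass (adjusted p = 0.212). *Dusp6* was 84.4, 78.3 and 63.0 CPM against 50.4, 59.2 and 46.6 CPM (log2 −0.58, SE 0.20, adjusted p = 0.108). *Spry2* overlapped, at 18.5, 20.3 and 26.0 CPM against 23.4, 18.6 and 20.0 CPM. Thus 1 of 5 members passed, where 3.34% of all tested genes did. The genotype difference at day 21 minus that at day 7 was −0.55 for *Fgfr2* (SE 0.22, adjusted p = 0.375), and 0 of 5 members passed this test with edgeR (0.484% of all genes; 3 members had an unadjusted p under 0.05, and DESeq2 called 0). The day 7 and day 21 genotype differences in *Fgfr2* were therefore not shown to differ.

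**Figure D3:**
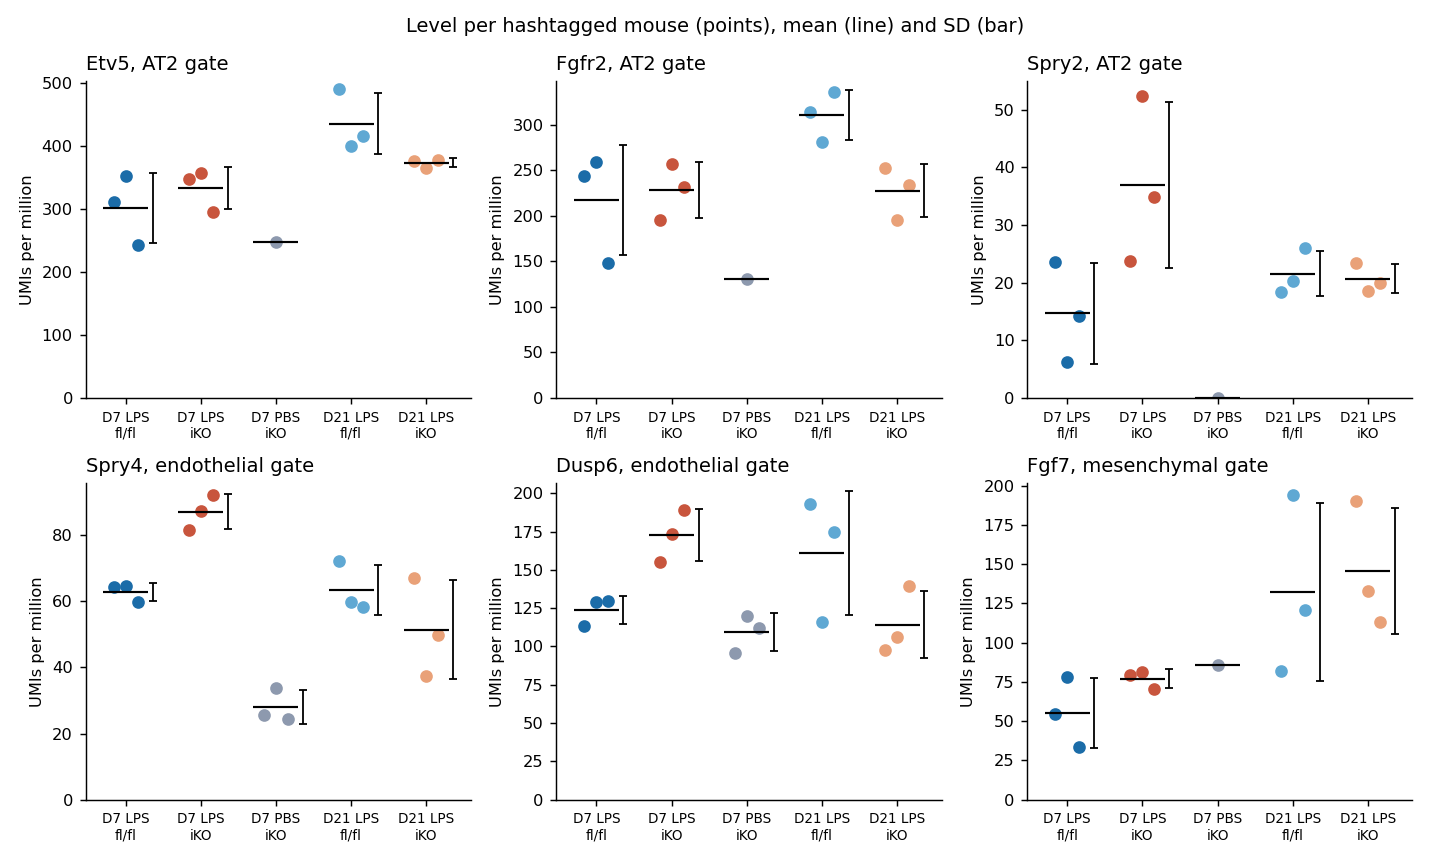
Levels per hashtagged mouse (CPM, 1 point per mouse) in the gate named above each panel, with a bar at the mean of each group. AT2 *Fgfr2* at day 21 is 281 to 335 CPM in Itgb1 fl/fl and 196 to 253 CPM in Itgb1 iKO mice, and endothelial *Spry4* is 24.4 to 33.8 CPM in PBS-treated and 81.7 to 92.3 CPM in LPS-treated Itgb1 iKO mice at day 7.

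AT2 cells of the PBS library were few. They numbered 26, and only 1 mouse, with 9 cells, held enough for the comparison with LPS. Over all 26 cells, *Fgfr2* was 148 CPM and *Etv5* 296 CPM, below the 240 and 362 CPM of the day 7 LPS Itgb1 iKO library, and *Spry2* was 15.6 CPM against 49.4 CPM. In the fit on the lone mouse, assumed to vary like the other groups, 0 of 5 members passed (0.178% of all genes with edgeR; 1 member, *Spry2*, had an unadjusted p under 0.05, and DESeq2 called 0). *Spry2* had 0 UMIs in that mouse and no fold is given.

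Averaged over genotypes, AT2 *Etv5* was higher at day 21 than at day 7 after LPS, a comparison added after the values were seen. The 6 day 7 mice ran from 243 to 357 CPM and the 6 day 21 mice from 365 to 491 CPM, without overlap (log2 0.36, SE 0.10, edgeR adjusted p = 0.0146). It was the only one of 5 members to pass, where 9.29% of all tested genes did. It did not pass under the tag-share rule (0.29, adjusted p = 0.0828), without the mixed day 21 mouse (0.28, adjusted p = 0.0824), without mouse 3 of the day 7 Itgb1 fl/fl library (0.27, adjusted p = 0.0740) or without mouse 3 of the day 7 Itgb1 iKO library (0.31, adjusted p = 0.0598). The day 21 pools had been enriched with EPCAM-positive cells and the day 7 pools had not, and time and this enrichment cannot be told apart.

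In endothelium *Spry4* and *Dusp6* were higher after LPS. *Spry4* was 25.5, 33.8 and 24.4 CPM in the 3 PBS-treated Itgb1 iKO mice and 81.7, 87.2 and 92.3 CPM in the 3 LPS-treated Itgb1 iKO mice at day 7. The lowest LPS value was above the highest PBS value by more than either group's range (log2 difference 1.55, SE 0.12, edgeR adjusted p = 3.90e-09). *Dusp6* was 95.7, 120 and 112 CPM with PBS and 155, 174 and 189 CPM with LPS, also without overlap (log2 0.57, SE 0.12, adjusted p = 0.00147). The pooled levels of both were also higher in each capillary group, with no test over mice. *Spry4* went from 34.3 to 88.3 CPM in general capillary-like cells and from 12.9 to 70.0 CPM in aerocyte-like cells, and *Dusp6* from 128 to 188 CPM and from 55.7 to 83.9 CPM. Aerocyte-like cells made up 22.9% of endothelial cells with PBS and 13.5% with LPS. All 3 LPS mice carried Y-linked transcripts, while mouse 1 of the PBS library held 864 cells with *Xist* alone and 24 with Y-linked transcripts alone. The part of sex was not tested. The third feedback gene, *Spry2*, did not pass (log2 0.20, SE 0.34, adjusted p = 0.718).

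*Etv5* (log2 1.09, SE 0.33, adjusted p = 0.0155) and *Fgfr2* (log2 0.71, SE 0.24, adjusted p = 0.0307) passed the same test in endothelium at low levels. Over the library, *Etv5* was 6.06 CPM higher with LPS, while the AT2 share given by *Sftpc* was 6.29 CPM higher. For *Fgfr2* the rise was 7.63 CPM and the share rose by 4.32 CPM. Whether free AT2 RNA accounts for these rises was not tested. Neither passed with stricter gates (adjusted p = 0.0503 and 0.0658) or without mouse 2 of the LPS library (adjusted p = 0.109 and 0.186), and *Fgfr2* did not pass without PBS mouse 2 (0.0650) or 3 (0.159) or in a fit of these 2 groups alone (0.0692). *Fgfr1* was lower with LPS by a log2 difference of −0.52 (SE 0.21), which did not pass (adjusted p = 0.0711) but passed with stricter gates (−0.56, adjusted p = 0.0475) and without mouse 3 of the LPS library (−0.72, adjusted p = 0.0266). *Fgf1* was 67.1, 68.8 and 60.2 CPM with PBS and 62.4, 73.0 and 55.3 CPM with LPS, and the groups overlapped. With 4 of 7 tested members higher and 26.1% of all 11757 genes called in either direction, a called gene was common in this comparison.

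Between genotypes at day 7, *Spry4* and *Dusp6* were higher in endothelium of Itgb1 iKO mice, in which Cre is directed to AT2 cells and not to endothelium. *Spry4* was 64.3, 64.7 and 59.8 CPM in Itgb1 fl/fl mice, against the 81.7 to 92.3 CPM given above (log2 difference 0.45, SE 0.11, edgeR adjusted p = 0.0327). *Dusp6* was 113, 129 and 130 CPM in Itgb1 fl/fl mice, against 155 to 189 CPM (log2 0.46, SE 0.12, adjusted p = 0.0434). Neither gene's groups overlapped. *Spry2* did not pass (log2 1.00, SE 0.37, adjusted p = 0.178). In general capillary-like cells *Spry4* was 67.1 and 88.3 CPM and *Dusp6* 140 and 188 CPM in the Itgb1 fl/fl and Itgb1 iKO libraries. In aerocyte-like cells *Spry4* was 42.3 and 70.0 CPM and *Dusp6* 58.0 and 83.9 CPM. In all, 2 of 7 members passed, where 2.55% of all tested genes did. Both lost the call under the tag-share rule (adjusted p = 0.0669 for *Spry4* and 0.244 for *Dusp6*) and when any single mouse other than mouse 1 of the Itgb1 iKO library was left out. Then *Spry4* differed by 0.41 to 0.47 (adjusted p up to 0.133) and *Dusp6* by 0.40 to 0.49 (adjusted p up to 0.174). The sexes of the 2 groups differed, as stated above, and the part of sex was not tested. The genotype difference in AT2 cells minus that in endothelium passed for 0 of 9 members (edgeR, 0.227% of all genes; 1 member had an unadjusted p under 0.05, and DESeq2 called 0). It was −0.29 for *Dusp6* (SE 0.37, adjusted p = 0.944) and −0.67 for *Etv5* (SE 0.33, adjusted p = 0.656).

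**Figure D4:**
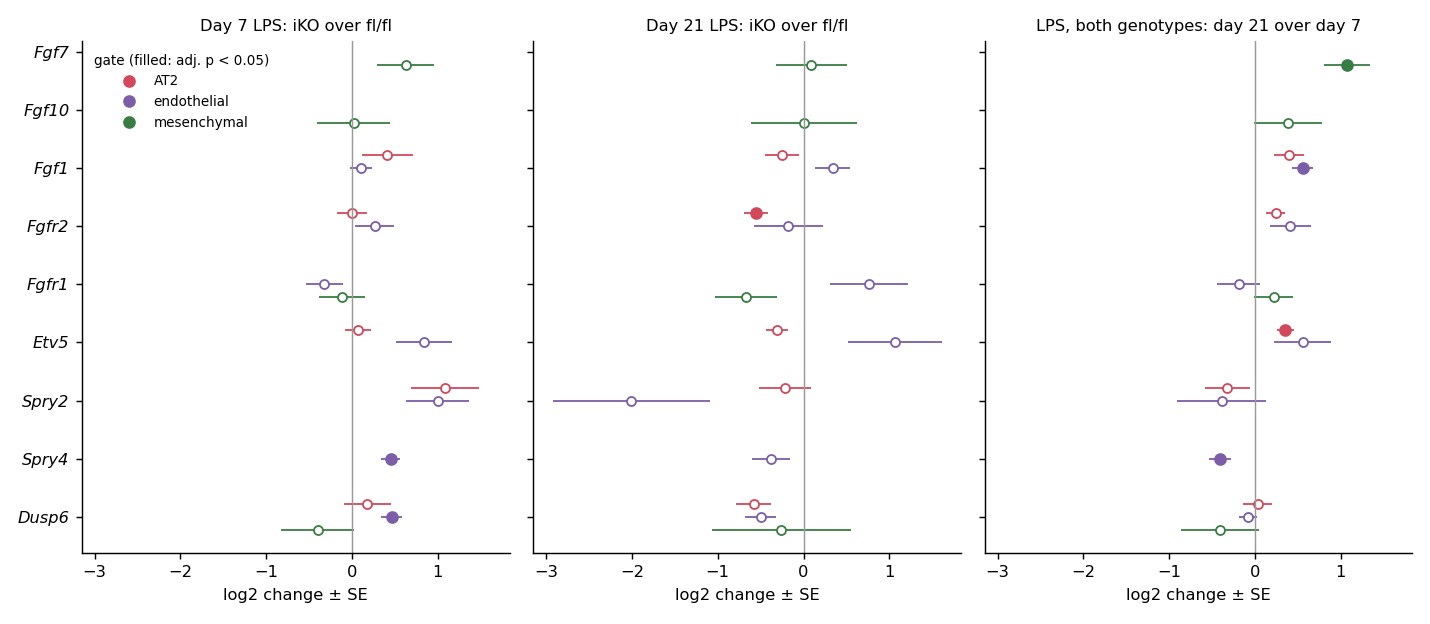
Log2 differences of each tested member in AT2, endothelial and mesenchymal gated cells, with bars of 1 standard error and filled points for edgeR adjusted p under 0.05. Panels show Itgb1 iKO against Itgb1 fl/fl at day 7 and at day 21 after LPS, and day 21 against day 7 over both genotypes. Mesenchymal *Fgf7* shows the largest called difference drawn, 1.07 for day 21 against day 7.

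At day 21 the endothelial order of genotypes was not the same. *Dusp6* was 193, 116 and 175 CPM in Itgb1 fl/fl mice and 97.6, 106 and 139 CPM in Itgb1 iKO mice, and the groups overlapped (log2 difference −0.50, SE 0.18, edgeR adjusted p = 0.244). *Spry4* was 72.1, 59.9 and 58.2 CPM against 67.1, 37.4 and 49.7 CPM, also overlapping (log2 −0.38, SE 0.22, adjusted p = 0.552). No member passed at day 21 (0 of 7, edgeR; 0.519% of all genes; 2 members had an unadjusted p under 0.05, and DESeq2 called 0). The genotype difference at day 21 minus that at day 7 was −0.96 for *Dusp6* (SE 0.22, adjusted p = 0.0329), 1 of 7 members called where 0.987% of all genes were. Without the mixed day 21 mouse it was −0.82 (adjusted p = 0.103), and the tag-share rule also ended the call (adjusted p = 0.273). So did leaving out mouse 1 or 2 of the day 7 Itgb1 fl/fl library, mouse 2 of the day 7 Itgb1 iKO library, mouse 3 of the day 21 Itgb1 fl/fl library, or mouse 1 or 2 of the day 21 Itgb1 iKO library (log2 −0.99 to −0.88, adjusted p = 0.0579 to 0.153). For *Spry4* the same quantity was −0.83 (SE 0.25, adjusted p = 0.117), and for *Spry2* −3.01 (SE 0.97, adjusted p = 0.155). The makeup of the gate also moved in opposite directions, since aerocyte-like cells, which are lower in *Dusp6*, were 21.8% of endothelial cells in Itgb1 fl/fl and 13.5% in Itgb1 iKO at day 7, and 37.1% and 47.4% at day 21. Within general capillary-like cells pooled *Dusp6* was 140 CPM in Itgb1 fl/fl and 188 CPM in Itgb1 iKO at day 7, and 198 and 157 CPM at day 21. Within aerocyte-like cells it was 58.0 and 83.9 CPM, and then 83.4 and 55.8 CPM. The order of genotypes thus turned within each capillary group too, with no test over mice. Sex was not balanced between genotypes on either day, as stated above, and the part of sex was not tested.

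Averaged over genotypes, endothelial *Fgf1* was higher at day 21 than at day 7 after LPS, in the added comparison. As in AT2 cells, time and the EPCAM enrichment of the day 21 pools cannot be told apart. The day 7 mice ran from 52.8 to 73.0 CPM. The day 21 mice were at 63.1, 65.6 and 101 CPM in Itgb1 fl/fl and 131, 83.7 and 97.5 CPM in Itgb1 iKO, so that 2 of them lay within the day 7 range (log2 0.56, SE 0.12, edgeR adjusted p = 0.00200). This call held without the mixed mouse (0.61, adjusted p = 0.00173). Within each capillary group the levels were nearer. In aerocyte-like cells *Fgf1* was 155 and 205 CPM at day 7 and 184 and 200 CPM at day 21 (Itgb1 fl/fl and Itgb1 iKO), and in general capillary-like cells 34.8 and 39.0 CPM and then 34.7 and 31.2 CPM. The share of aerocyte-like cells in the gate, 21.8% and 13.5% at day 7, was 37.1% and 47.4% at day 21. The part of this share in the gate's *Fgf1* level was not tested. *Spry4* was lower at day 21 (log2 −0.41, SE 0.12, adjusted p = 0.0187). It did not pass without mouse 3 of the day 21 Itgb1 fl/fl library (−0.38, adjusted p = 0.0590) or mouse 2 of the day 21 Itgb1 iKO library (−0.31, adjusted p = 0.112). These were 2 of 7 members, where 22.4% of all genes passed.

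**Figure D5:**
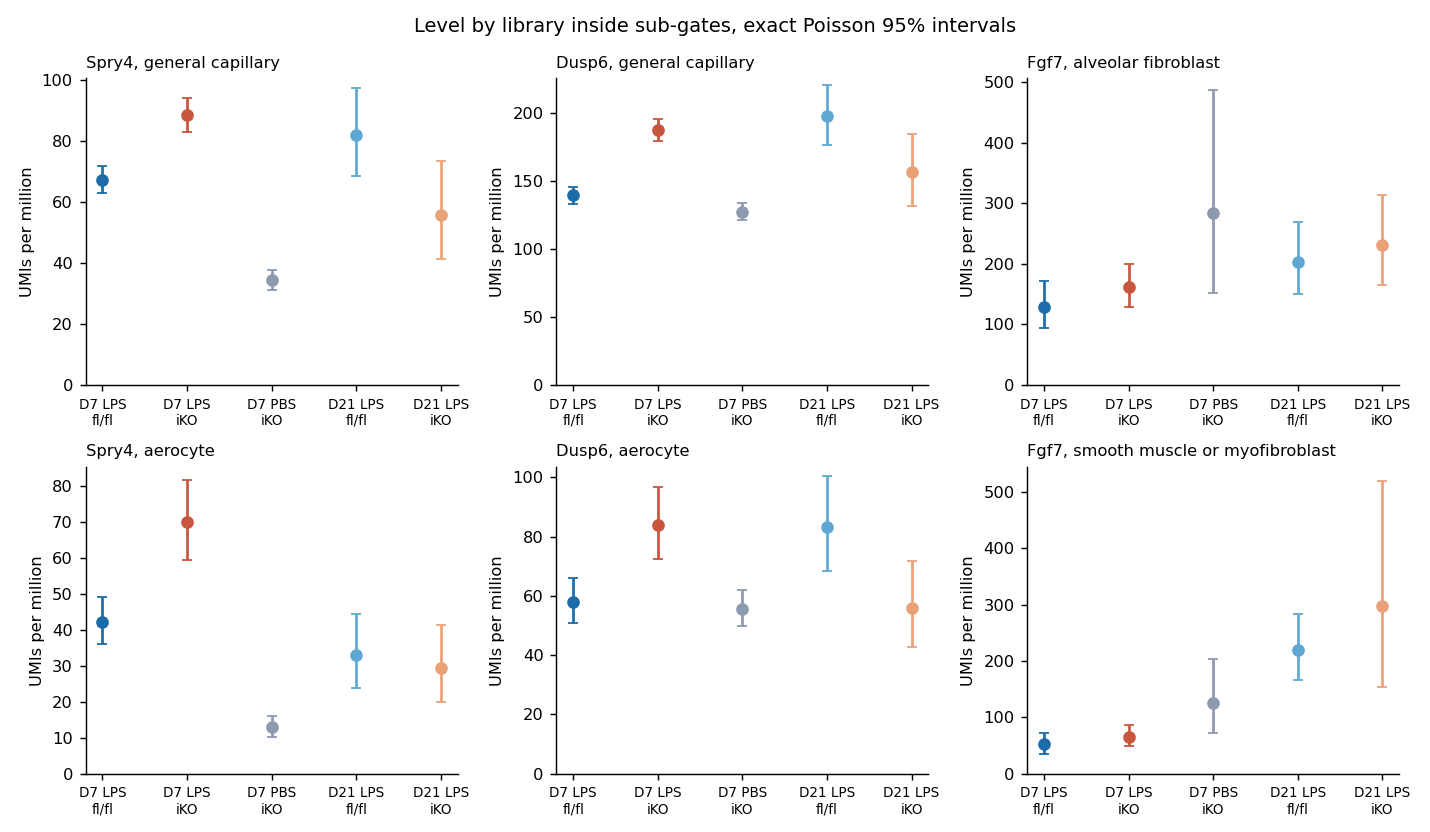
Levels by library (CPM, with exact 95% Poisson intervals) of *Spry4* and *Dusp6* in capillary groups and of *Fgf7* in mesenchymal groups. The capillary groups are general capillary-like and aerocyte-like cells, and the mesenchymal groups alveolar fibroblast-like and smooth muscle or myofibroblast-like cells. *Spry4* is 12.9 CPM in aerocyte-like cells of the PBS library and 70.0 CPM in those of the day 7 LPS Itgb1 iKO library.

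Mesenchymal ligand levels were then followed over the same conditions. At day 7, *Fgf7* was 54.3, 78.0 and 33.6 CPM in Itgb1 fl/fl mice and 79.4, 81.6 and 70.2 CPM in Itgb1 iKO mice. The groups overlapped, and the log2 difference of 0.63 (SE 0.33) did not pass (edgeR adjusted p = 1.00). *Fgf10* was 34.6, 22.3 and 38.1 CPM against 29.3, 37.5 and 29.9 CPM, and *Fgfr1* 114, 197 and 143 CPM against 117, 157 and 130 CPM, both overlapping. With edgeR, 0 of 4 tested members passed (0.133% of all 6018 genes; 0 had an unadjusted p under 0.05, and DESeq2 called 0). At day 21 the 3 Itgb1 fl/fl mice held *Fgf7* at 82.2, 194 and 121 CPM and the 3 Itgb1 iKO mice at 190, 133 and 113 CPM, which overlapped (log2 0.09, SE 0.41, adjusted p = 0.965). Here too 0 of 4 passed (0.0166% of all genes; 0 had an unadjusted p under 0.05, and DESeq2 called 0), as in the difference between the 2 days (0.0166%, with the same counts).

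Averaged over genotypes, *Fgf7* was higher at day 21 than at day 7, again in the added comparison. Here too, time and the EPCAM enrichment of the day 21 pools cannot be told apart. The 6 day 7 mice ran from 33.6 to 81.6 CPM and the 6 day 21 mice from 82.2 to 194 CPM, without overlap but with the nearest mice almost level (log2 1.07, SE 0.27, edgeR adjusted p = 0.0279). *Fgf7* was the 1 member of 4 to pass, where 3.04% of all genes did. In libraries, alveolar fibroblast-like cells held 129 and 162 CPM at day 7 and 203 and 231 CPM at day 21, adventitial fibroblast-like cells 44.8 and 85.4 CPM and then 120 and 117 CPM, and smooth muscle or myofibroblast-like cells 52.1 and 65.9 CPM and then 219 and 298 CPM (Itgb1 fl/fl and Itgb1 iKO each time). The log2 difference was 1.19 without the mixed mouse (adjusted p = 0.0355). The call was lost when any of 6 of the 12 mice was left out: mouse 3 of either day 7 library, mice 2 and 3 of the day 21 Itgb1 fl/fl library, or mice 1 and 2 of the day 21 Itgb1 iKO library (log2 0.87 to 1.14, adjusted p = 0.0529 to 0.0972). Per mouse, 8 to 161 mesenchymal cells stood behind these values. *Fgf10* (log2 0.38, SE 0.40) and *Fgfr1* (0.22, SE 0.23) did not pass.

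The PBS library held 103 mesenchymal cells. *Fgf7* was 133 CPM there, against 85.9 CPM in the day 7 LPS Itgb1 iKO library, and *Fgf10* was 63.6 against 33.5 CPM. In alveolar fibroblast-like cells alone *Fgf7* was 285 CPM on 13 UMIs in the PBS library and 162 CPM on 85 UMIs in the LPS library. Only 1 PBS mouse, with 7 cells, entered the fit, and 0 of 4 members passed (edgeR, 0.781% of all genes; 1 member, *Fgfr1*, had an unadjusted p under 0.05, and DESeq2 called 0). *Fgfr1* had 0 UMIs in that mouse, so no fold is given.

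The rest of the pathway was read from 89 further genes in 5 lists: other FGF ligands, other receptors and co-receptors, heparan sulfate proteoglycans and their enzymes, adaptors and kinases of the MAPK cascade, and other ERK targets. Between compartments, 46 of 60 tested genes differed between AT2 and endothelial cells, 30 higher and 16 lower in AT2, where 69.4% of all genes differed. *Sdc1* (log2 5.94) and *Sdc4* (4.65), cell-surface heparan sulfate proteoglycans, and *Fgfbp1* (7.67), which releases FGFs from the matrix, were higher in AT2 cells. *Sdc3* (−7.10), the sulfatase *Sulf1* (−6.38) and the FGF feedback inhibitor *Il17rd* (−5.85) were lower. Of 60 tested genes, 25 were higher and 15 lower in mesenchyme than in endothelium, where 53.1% of all genes differed. Mesenchyme was higher than endothelium in the glypicans *Gpc6* (8.26) and *Gpc3* (7.04), in *Sdc2* (5.67), in the ligand *Fgf2* (6.27) and in *Myc* (5.03), and lower in the ERK-activated kinase *Rps6ka1* (−6.25). *Fgf2* was the only one of the 19 other ligands that could be tested between gates.

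In AT2 cells at day 7, 1 of 44 further pathway genes passed between genotypes, *Phlda1* (log2 0.90, adjusted p = 0.00698), where 1.8% of all genes did. At day 21, 3 of 44 passed, where 3.34% of all genes did. *Fosl1*, an AP-1 subunit induced by ERK, was higher in Itgb1 iKO (log2 1.35, edgeR adjusted p = 0.00162), as was the heparan sulfate 2-O-sulfotransferase *Hs2st1* (0.74, adjusted p = 0.0131), and *Fgfbp1* was lower (−0.98, adjusted p = 0.0131). The receptor adaptor *Frs2* (1.03), *Fgfbp1* (1.42), *Egr1* (0.70) and *Sdc4* (0.36) were higher in AT2 cells at day 21 than at day 7, 4 of 44 where 9.29% of all genes passed. In endothelium at day 7, *Spred1*, another inhibitor of the RAS cascade, was higher in Itgb1 iKO mice (log2 1.10, adjusted p = 5.61e-06), as was *Sdc4* (0.56, adjusted p = 0.0128), and 59 of 61 further genes did not pass, where 2.55% of all genes passed. At day 21 the 1 of 61 to pass was *Ier3*, an early response gene induced by ERK, where 0.519% of all genes passed. It was lower in Itgb1 iKO mice (log2 −1.08, edgeR adjusted p = 0.0443).

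In endothelium, 13 of 61 further genes were higher and 6 lower with LPS than with PBS, where 26.1% of all genes were called. The heparan sulfate list held 6 higher and 0 lower of 18, with a median log2 difference of 0.54 against 0.02 over all genes. Among them were *Sdc1* (3.35), *Gpc3* (2.63) and *Hspg2* (1.81), which encodes perlecan. Transcripts of other cell types were also higher in this gate with LPS: between the PBS and LPS libraries the AT2 markers (10 of 10 detected in both) went from 1074 to 5314 CPM, the airway markers (8 of 9) from 394 to 1746 CPM and the mesenchymal markers (8 of 9) from 488 to 1019 CPM. *Sdc1* was 5.94 higher in AT2 cells and *Gpc3* 7.04 higher in mesenchyme than in endothelium on the log2 scale, and the part of such RNA in the list's count was not tested. The MAPK list held 4 higher and 2 lower of 23 (median 0.01), and the ERK target list 3 higher and 3 lower of 15 (median −0.01), led by *Myc* (2.34) and *Spata13* (1.48). *Fgfr3* was the 1 other receptor gene to pass and was lower (−1.56, adjusted p = 4.63e-08). At day 21 against day 7, 7 of 61 further genes were higher and 6 lower in endothelium, where 22.4% of all genes were called. Of these, *Myc* (−2.66) and *Sdc3* (−0.60) were lower and *Phlda1* (0.80), *Gab1* (0.71), *Spred2* (0.65) and *Hs2st1* (0.52) were higher. In mesenchyme 1 of 43 passed at day 21 against day 7, *Gpc1* (−2.74), where 3.04% of all genes passed. For LPS in mesenchyme no further gene is given, because the PBS group was 1 mouse with 7 cells.

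Finally, the genes whose levels varied most like each member over the mice were listed, by Pearson correlation of log2(CPM + 1) within the gate where the member was highest. The mice share libraries and depth, and the correlations are descriptions. Over 13 mice, AT2 *Etv5* lay nearest to *Tmem42* (r = 0.91), *Nfix* (0.90) and *Msi2* (0.87). Over 15 mice, endothelial *Spry4* lay nearest to *Casp8* (0.91), *Adamts9* (0.89) and *Pdlim1* (0.87), *Dusp6* to *Nr4a1* (0.82), *Lmna* (0.81) and *Azin1* (0.81), and *Fgf1* to *Gnao1* (0.92), *Pitpnm2* (0.91) and *Msi2* (0.91). *Spry4* and *Dusp6*, which share LPS as a condition in which both rose, had no gene in common among their nearest 3. Over 13 mice, mesenchymal *Fgf7* lay nearest to *Scn7a* (0.94), *Abca8a* (0.88) and *Olfml1* (0.86). For *Fgfr2*, *Spry2*, *Fgfr1* and *Fgf10* the lone PBS mouse of the gate, with 9 or 7 cells, was an extreme value, and their nearest genes are not given.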

How the data were processed

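The authors aligned the reads with Cell Ranger 3.1 to mm10 and deposited raw UMI counts per gene and hashtag in each barcode. The counts precede the authors' correction for free RNA and their removal of doublets, and no doublet caller was run here. The study's cell filter was applied (700 genes or more, mitochondrial share of 0.1 to 15%). AT2 cells held no UMI of the endothelial and mesenchymal gate genes, and endothelial and mesenchymal cells none of *Epcam* or of each other's gate genes. *Sftpc* was not used to exclude cells from those gates. Per-mouse values used cells with 1 hashtag at 4 times its background or more. Counts were summed per mouse and gate (at least 5 cells) and tested with edgeR 4.0.16 (quasi-likelihood test on TMM-scaled libraries after the default expression filter, Benjamini-Hochberg adjustment over all genes, call at adjusted p under 0.05) in R 4.3.3. The fit of conditions pooled the spread over all groups of a gate. Gates were compared with the mouse as a block. DESeq2 1.42.0, no filter, another hashtag rule, stricter gates, at least 10 cells per mouse, fits of 2 groups and leaving out each mouse were alternatives. The scripts were tested on simulated data. There, a log2 change of 1 between the day 7 genotypes was called for 55.1% of changed genes in AT2 cells. The share was 78.5% in endothelium and 38% in mesenchyme, so that a member not called may still differ. All 9 members are named in every gate, and of the other pathway genes up to 6 called genes of largest change per comparison. The members and lists were chosen with earlier results of these data known, and day 21 against day 7 was added after the values were seen. Promoter windows were taken for 6 of the 9 genes, and 3 are shown. Windows on chromosome 18, which holds *Fgf1* and *Spry4*, were not used.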

Additional observations from a re-analysis of the deposited data

Results flagged for a closer look

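The genotype effects of *Dusp6* and *Ier3* differed between day 7 and day 21 in endothelium, by a test of the difference itself. For *Dusp6*, the genotype difference (Itgb1 iKO minus Itgb1 fl/fl) was 0.46 at day 7 and −0.50 at day 21, and the difference between them was −0.96 (SE 0.22, edgeR adjusted p = 0.0329). It did not pass without mouse 1 of the day 21 Itgb1 fl/fl library (−0.82, adjusted p = 0.103), nor without any of 6 other single mice. For *Ier3*, an early response gene of the same cascade, it was −1.71 (SE 0.28, adjusted p = 0.0168). At day 7 the genotypes also differed in sex, and at day 21 mouse 1 of the Itgb1 fl/fl library mixed cells of both sexes. Among the other day 21 mice, *Xist*-positive cells prevailed in Itgb1 fl/fl mice and in Itgb1 iKO mouse 1. Cells with Y-linked transcripts prevailed in Itgb1 iKO mice 2 and 3. The share of aerocyte-like cells, which are lower in *Dusp6*, was 21.8% and 13.5% (Itgb1 fl/fl and Itgb1 iKO) at day 7 and 37.1% and 47.4% at day 21. The order of genotypes in pooled *Dusp6* also turned between the days within general capillary-like cells (140 and 188 CPM, then 198 and 157 CPM) and within aerocyte-like cells (58.0 and 83.9 CPM, then 83.4 and 55.8 CPM). The part of sex, of the mixed mouse and of the cell mix in these differences was not tested.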

How the results depend on the processing

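Of 1661 member log2 differences recomputed under an alternative, none of those called reversed. With a mouse left out, 983 of 1023 kept their side of the threshold, and under the other alternatives 625 of 638. For 73 differences that were called in neither fit the sign differed. The number of members called moved by more than 1.5 times only under the tag-share rule, to 1 in AT2 cells at day 7 and to 0 for AT2 day 21 against day 7, for endothelium at day 7 and for its day 21 minus day 7 difference. It was 3 in place of 4 for endothelial LPS with stricter gates and in the fit of 2 groups, and 7 in place of 8 for mesenchyme against endothelium with DESeq2, the tag-share rule and stricter gates. With each mouse left out it was 0 to 1 for the AT2 genotype effect at day 21, AT2 day 21 against day 7, endothelial day 21 minus day 7 and mesenchymal day 21 against day 7, 0 to 2 for endothelium at day 7, 2 to 5 for endothelial LPS and 1 to 2 for endothelial day 21 against day 7.

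Counts over all genes moved more. For AT2 cells at day 7 (141 genes) the fit of 2 groups called 92. For AT2 LPS (14) DESeq2 called 31, no filter 32, stricter gates 9 and the fit of 2 groups 23, for AT2 day 21 minus day 7 (38) no filter called 75, and for AT2 day 21 against day 7 (729) DESeq2 called 457. For endothelium at day 21 (61) DESeq2 called 196, no filter 147, the tag-share rule 40, stricter gates 103 and the fit of 2 groups 146, and for its day 21 minus day 7 difference (116) DESeq2 called 203, no filter 208 and the tag-share rule 46. For mesenchyme at day 7 (8) no filter called 74 and stricter gates 4, for mesenchymal LPS (47) DESeq2 106, no filter 216, the tag-share rule 0 and the fit of 2 groups 135, and for mesenchyme at day 21 (1) DESeq2 53, no filter 51, the tag-share rule 3, stricter gates 6, at least 10 cells 0 and the fit of 2 groups 7. For mesenchymal day 21 minus day 7 (1) DESeq2 called 13, no filter 44, the tag-share rule 0 and at least 10 cells 2, for mesenchymal day 21 against day 7 (183) no filter 500, the tag-share rule 299 and stricter gates 106, and for AT2 minus endothelial at day 7 (23) DESeq2 15, no filter 61, the tag-share rule 14 and stricter gates 15. The cause was not tested.

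With each mouse left out, the AT2 counts ran from 57 to 159 at day 7, 106 to 213 at day 21 and 22 to 53 for day 21 minus day 7. Endothelial counts ran from 136 to 306 at day 7, 11 to 66 at day 21 and 34 to 121 for day 21 minus day 7. Mesenchymal counts ran from 3 to 29 at day 7, 22 to 45 for LPS, 0 to 8 at day 21, 0 to 15 for day 21 minus day 7 and 85 to 297 for day 21 against day 7, and AT2 minus endothelial from 7 to 21. At least 10 cells per mouse gave no value for LPS in AT2 cells and mesenchyme, nor stricter gates for LPS in mesenchyme, since no PBS mouse was left.

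No paired analysis was possible because the labels give the conditions no shared replicate numbers. Gates were compared within mice, and without that block 7125, 5476, 5746 and 17 genes were called for AT2 against endothelium, mesenchyme against endothelium, AT2 against mesenchyme and AT2 minus endothelial at day 7, and 7, 8, 9 and 0 members. Of 450 recomputed levels of the members and *Itgb1*, 35 lay outside the 95% counting interval of the reported level, 26 of them when restricted to cells with a single hashtag. The replicates are 3 hashtagged mice within 1 library per condition, so p-values cover the spread between mice and not that between libraries. Depth limits mesenchyme most, where the mice tested had 7 to 161 cells each, and AT2 cells of PBS lungs, where the 1 mouse tested had 9.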
